A study of Mus musculus with 2 samples.

Results

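CD8 T cells in the islets of NOD mice were taken as droplet barcodes that carried RNA of the T cell receptor complex and of a CD8 coreceptor chain. They numbered 127 of 9374 barcodes, 79 in the HAMSAB library and 48 in the HAMS library. A barcode was a member when it had at least 200 genes, at most 20% mitochondrial UMIs and under 2% of UMIs from the islet hormones Ins1, Ins2, Gcg, Sst and Ppy. It also needed at least 1 UMI of Cd3d, Cd3e, Cd3g, Trac, Trbc1 or Trbc2, at least 1 UMI of Cd8a or Cd8b1, and no UMI of Cd4, Cd79a, Ms4a1, C1qa, C1qb or C1qc. A UMI is a molecular tag that lets copies of 1 captured RNA be counted once. The members were thus chosen by the measured UMIs of these genes, which are given as a description.

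The study placed NOD (non-obese diabetic) mice, whose islets are attacked by their own T cells, on the HAMSAB or the HAMS diet at 5 weeks of age for 5 weeks, and profiled islets from each diet in 1 droplet library. HAMS stands for high-amylose maize starch, and HAMSAB is its acetylated and butyrylated form, from which gut microbes release short-chain fatty acids. The number of mice behind each library is not given in the sources used here. With 1 library per diet there was no replicate check, diet and library cannot be told apart, and no test of the diet was made. Intervals are 95% and cover counting error only.

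CD8 T cells recognise peptides held by MHC class I, and in NOD islets they are known for killing insulin-producing cells. The CD8 coreceptor is a dimer of CD8 alpha and beta chains, which binds class I beside the receptor and brings the kinase Lck to it. Killing uses perforin and granzymes from cytotoxic granules, and naive or stem-like cells that have not taken up this programme are known for TCF-1 (Tcf7), LEF-1 and the homing receptor CCR7.

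After the filters on genes and mitochondrial UMIs, 4628 barcodes were kept in the HAMSAB library and 4185 in the HAMS library. T barcodes, those with a receptor or Cd3 UMI and no B cell or C1q UMI, numbered 577 in the HAMSAB library and 260 in the HAMS library. CD8 members made up 1.71% (exact interval 1.35 to 2.12) of kept barcodes in the HAMSAB library and 1.15% (0.847 to 1.52) in the HAMS library. Of T barcodes they made up 13.7% (10.99 to 16.8) in the HAMSAB library and 18.5% (13.9 to 23.7) in the HAMS library. When barcodes with at least 500 UMIs were thinned to 500 UMIs before the rule, and shallower ones left out, the shares were near each other. They were 33 of 377 T barcodes (8.75%, 6.10 to 12.1) in the HAMSAB library and 14 of 178 (7.87%, 4.37 to 12.8) in the HAMS library. No T barcode had both Cd4 and a CD8 chain in either library. Most T barcodes, 471 in the HAMSAB library and 203 in the HAMS library, had no UMI of any coreceptor, and CD4 T barcodes numbered 27 in the HAMSAB library and 9 in the HAMS library.

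Depth set what could be seen in single cells. The median CD8 member had 1358 UMIs and 689 genes in the HAMSAB library and 1705 UMIs and 860.5 genes in the HAMS library, with UMIs from 317 to 4228 in the HAMSAB library and from 413 to 6550 in the HAMS library. T barcodes without a coreceptor UMI were shallower, with a median of 801 UMIs in the HAMSAB library and 953 in the HAMS library. Summed over members, the class held 122114 UMIs in the HAMSAB library and 100049 in the HAMS library, and levels below are UMIs scaled to a class total of 1000000 (CPM). A count of 0 allowed a level of up to 24.6 CPM in the HAMSAB library and 29.99 CPM in the HAMS library. Actb, cytoplasmic beta-actin, alone took 19.7% of the class's UMIs in the HAMSAB library and 22.1% in the HAMS library. The 2 libraries shared 6 barcode sequences, and 0 of them belonged to a member.

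The CD8 chains were seen at the edge of detection in most members. Cd8a, on chromosome 6 at chr6:71373427-71379173, gave 60 UMIs in the HAMSAB library and 42 in the HAMS library. Cd8b1, its neighbour at chr6:71322788-71337494, gave 46 UMIs in the HAMSAB library and 34 in the HAMS library (both on the plus strand, build GRCm38). Members with exactly 1 CD8 UMI, the lowest the rule admits, numbered 55 of 79 in the HAMSAB library and 27 of 48 in the HAMS library. Both chains were seen together in 10 members of the HAMSAB library and 6 of the HAMS library. In hormone-rich barcodes, which should lack the gene, 1 of 672 in the HAMSAB library and 1 of 885 in the HAMS library had a CD8 UMI, at a median depth of 724 UMIs in the HAMSAB library and 629 in the HAMS library.

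The markers of the label that the rule did not use gave a mixed picture. Nkg7, a cytotoxic granule membrane protein, had at least 1 UMI in 16 of 79 members of the HAMSAB library and 17 of 48 of the HAMS library. Its level in CD8 members over T barcodes without a coreceptor UMI had a log2 ratio of 0.39 (-0.46 to 1.19) in the HAMSAB library and 0.53 (-0.18 to 1.20) in the HAMS library, both of which span 0. Ccl5, a chemokine of effector and memory T cells, was lower in CD8 members than in those barcodes in the HAMSAB library, with a log2 ratio of -0.997 (-1.85 to -0.24), and its ratio in the HAMS library was -0.22 (-0.82 to 0.34). In CD4 T barcodes Ccl5 had 0 UMIs, with an interval up to 128 CPM in the HAMSAB library and 224 CPM in the HAMS library. CD8 members had 131 CPM of Ccl5 in the HAMSAB library and 350 CPM in the HAMS library. Nkg7 had 2 UMIs in CD4 T barcodes of the HAMSAB library (69.6 CPM, against 147 CPM in members) and 1 in the HAMS library (60.7 CPM, against 300 CPM). Ccl5 did not set CD8 members apart from the T barcodes whose coreceptor went undetected, which can hold CD8 cells too.

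The lectin-like receptors of the natural killer gene complex did so more clearly. Klrd1 (CD94) pairs with the NKG2 proteins encoded by Klrc1 and Klrc2 into receptors for the non-classical class I molecule Qa-1, and Klrk1 encodes NKG2D. They lie side by side on chromosome 6: Klre1 at chr6:129577905-129585827 and Klrd1 at chr6:129591782-129598775 on the plus strand, then Klrk1 at chr6:129610323-129623864, Klrc2 at chr6:129647496-129660689 and Klrc1 at chr6:129666015-129678973 on the minus strand (GRCm38). Klrd1 gave 19 UMIs in 15 members of the HAMSAB library and 17 UMIs in 14 members of the HAMS library. Klrc2 gave 19 UMIs in 14 members of the HAMSAB library and 13 UMIs in 7 members of the HAMS library. Klrc1 gave 14 UMIs in the HAMSAB library and 9 in the HAMS library. None of the 3 had a UMI in CD4 T barcodes of either library, where the interval of a 0 count reaches 128 CPM in HAMSAB and 224 CPM in HAMS. Klrc1 and Klrc2 are close paralogs, so reads could be split between them.

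Against T barcodes without a coreceptor UMI, the log2 ratio of Klrc2 in CD8 members was 2.14 (1.12 to 3.17) in the HAMSAB library and 1.41 (0.16 to 2.67) in the HAMS library. That of Klrc1 was 1.47 (0.37 to 2.52) in the HAMSAB library and 2.14 (0.41 to 4.06) in the HAMS library. Klrd1 had ratios of 1.77 (0.80 to 2.72) in the HAMSAB library and 0.92 (-0.09 to 1.90) in the HAMS library. Thinned to 500 UMIs, 17.8% of members in the HAMSAB library and 23.4% in the HAMS library had a UMI of any of the 5 Klr genes, against 7.98% of T barcodes without a coreceptor UMI in the HAMSAB library and 6.94% in the HAMS library. Of 9 NK cell markers 7, among them Ncr1, Klrb1c, Tyrobp and Fcer1g, had 0 UMIs in the members of both libraries. The other two, Klre1 and Eomes, gave the list's 15 UMIs in 10 members of the HAMSAB library and 17 UMIs in 13 members of the HAMS library.

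**Figure D1:**
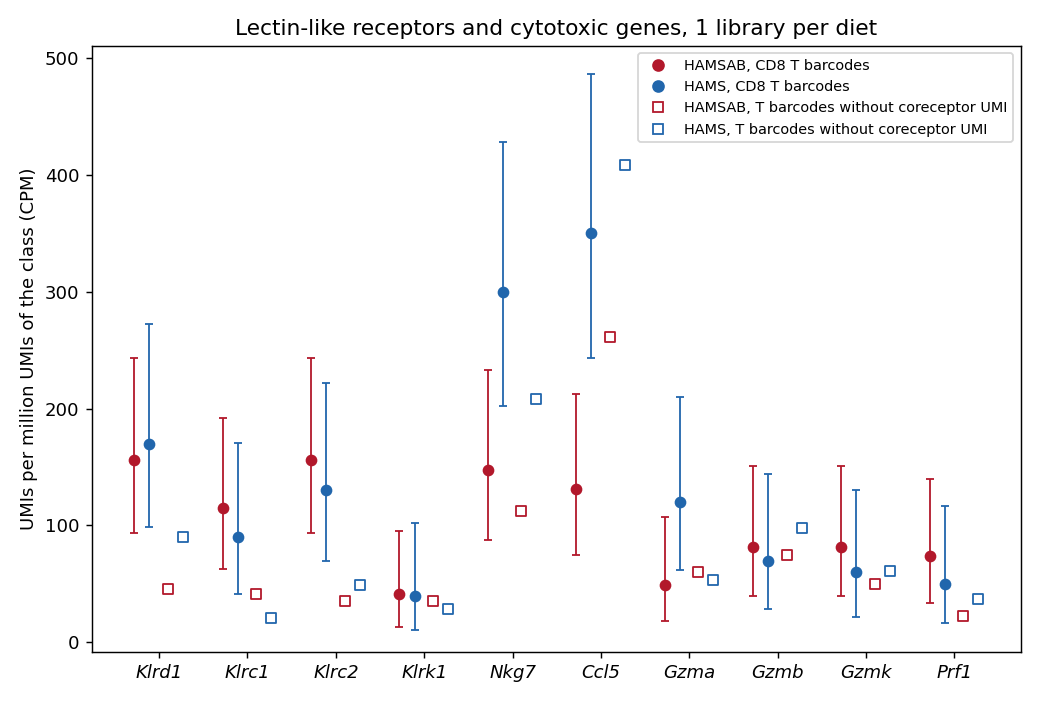
Level (CPM of the class total) of 4 lectin-like receptors and 6 cytotoxic genes in CD8 T barcodes (filled, with exact 95% Poisson intervals) and in T barcodes without a coreceptor UMI (open squares) of the HAMSAB and HAMS libraries. Klrd1, Klrc1 and Klrc2 lie above the open squares in both libraries, and Nkg7 and Ccl5 are lower in the HAMSAB library than in the HAMS library.

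Across all genes with at least 20 UMIs over both classes in each library, 13 of 2449 (0.531%) were at least 2-fold higher in CD8 members than in T barcodes without a coreceptor UMI in both libraries, and 25 (1.02%) were at least 2-fold lower. The higher count includes Cd8a and Cd8b1, which the rule keeps out of the other barcodes and which are not named below. Besides Klrc2, the genes highest by the smaller of their ratios included Xcl1, a chemokine that attracts XCR1 dendritic cells, and Serpinb9, the granzyme B inhibitor that protects killer cells from their own granules. Xcl1 had 172 CPM in CD8 members against 64.4 CPM in the other T barcodes of the HAMSAB library, and 220 CPM against 49.0 CPM in the HAMS library. Serpinb9 had 180 CPM against 74.7 CPM in the HAMSAB library, and 220 CPM against 77.6 CPM in the HAMS library. Zfp106, an RNA-binding zinc finger protein, and Pde3b, a cyclic nucleotide phosphodiesterase, stood at log2 ratios of 1.98 for Zfp106 and 1.30 for Pde3b in the HAMSAB library, and 1.78 for Zfp106 and 1.497 for Pde3b in the HAMS library. Dgcr8, Jpt1, Nudc, B4galt5 and Phykpl completed the highest 10.

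On the lower side stood Maf, a factor of helper and regulatory T cells, with 81.9 CPM in CD8 members against 608 CPM in the HAMSAB library and 9.995 CPM, from 1 UMI, against 376 CPM in the HAMS library. Gata3, the helper type 2 and ILC2 factor, had a log2 ratio of -1.50 (-2.34 to -0.76) in the HAMSAB library and -1.29 (-2.36 to -0.36) in the HAMS library. Ikzf2 (Helios), which is known from regulatory T cells, had ratios of -1.21 (-1.64 to -0.80) in the HAMSAB library and -2.06 (-2.93 to -1.29) in the HAMS library. Cd74, the class II invariant chain, was also lower in members, at 188 CPM against 608 CPM in the HAMSAB library and 180 CPM against 792 CPM in the HAMS library, as were H2-Eb1 and Ctss, both of antigen-presenting cells. Ass1, Cdkn1a, Hnrnpll, Marcksl1, Bmpr2 and Tbc1d4 completed the lowest 10. Gata3 and Ikzf2 are named as members of the T cell factor list and were not among these 10.

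Against CD4 T barcodes, 30 of 829 genes (3.62%) were at least 2-fold higher in CD8 members in both libraries and 4 (0.483%) at least 2-fold lower. The higher count again includes Cd8a and Cd8b1, which the mirrored rule keeps out of CD4 T barcodes. The CD4 side rests on 28751 UMIs in the HAMSAB library and 16465 in the HAMS library, and the 10 genes named on the higher side (Cramp1l, Gatad2a, Hnrnpm, Tnrc6b, Pik3r1, Tubb4b, Ugcg, Ccdc50, Ppp3ca and Smc6) had 0 to 3 UMIs there, with intervals that reach below 0 in at least 1 library each. On the lower side, Ikzf2 had 442 CPM in CD8 against 1635 CPM in CD4 barcodes of the HAMSAB library, and 150 CPM against 1215 CPM in the HAMS library. Malt1, a scaffold protease of antigen receptor signalling to NF-kB, had log2 ratios of -1.83 (-2.56 to -1.09) in the HAMSAB library and -1.84 (-3.05 to -0.55) in the HAMS library. Of the other 8 named on this side, Arl6ip1 was past 2-fold in both libraries, and Zfp36l1, Spopl, Tox, Wdr76, Hif1a, Eif4e and Rora were not. Among these 8, Zfp36l1 alone had an interval below 0 in both libraries.

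The 2 constant regions of the receptor beta chain, which belong to the rule and are given as values, had unequal shares in the libraries. Trbc1 took 57 of 150 Trbc UMIs (38%, 30.2 to 46.3) in members of the HAMSAB library and 12 of 72 (16.7%, 8.92 to 27.3) in members of the HAMS library. Both were seen in 15 of 56 members with a Trbc UMI in the HAMSAB library and 2 of 34 in the HAMS library. Trbc1 and Trbc2 are near-identical copies, so the split between them is uncertain. Variable segments were almost undetected, with 6 UMIs in the HAMSAB library and 3 in the HAMS library. Trbv13-3 had 2 of these UMIs in each library.

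RNA of other cell types among the members was low but differed between the libraries. Islet hormones gave 40 UMIs in 24 members of the HAMSAB library and 246 UMIs in 23 members of the HAMS library, and the highest hormone share of a member was 0.380% in the HAMSAB library and 1.72% in the HAMS library. Dropping the hormone limit admitted 2 more barcodes in the HAMSAB library and 1 in the HAMS library. The 11 acinar and ductal markers gave 25 UMIs in 10 members of the HAMSAB library and 2 UMIs in 1 member of the HAMS library. B cell markers gave 38 UMIs in 11 members of the HAMSAB library and 19 UMIs in 3 members of the HAMS library, with Cd79a and Ms4a1 at 0 by the rule. Cd74, which is on that list and is not particular to B cells, gave 23 of the 38 UMIs in the HAMSAB library and 18 of the 19 in the HAMS library. The 8 markers of Xcr1 dendritic cells gave 18 UMIs in 13 members of the HAMSAB library and 8 UMIs in 5 members of the HAMS library, with Xcr1 and Clec9a at 0. The 9 markers of other and mature dendritic cells gave 22 UMIs in 6 members of the HAMSAB library and 6 UMIs in 4 members of the HAMS library, a log2 ratio of 1.59 (0.24 to 3.18). The 6 ILC2 markers, which include Gata3 and Rora, gave 49 UMIs in the HAMSAB library and 31 in the HAMS library, and the 7 plasma cell markers gave 17 in HAMSAB and 8 in HAMS. Among gamma-delta T cell markers Trdc was at 0, and 8 measured ones gave 3 UMIs in the HAMSAB library and 9 in the HAMS library. The 7 CD4 and regulatory T markers, which include Il2ra and Ikzf2, gave 94 UMIs in the HAMSAB library and 36 in the HAMS library, with Foxp3 at 1 UMI in HAMSAB and 0 in HAMS. The 9 macrophage markers summed to 57.3 CPM in the HAMSAB library and 49.98 CPM in the HAMS library, and the granulocyte and erythroid markers were at 0 in both. Their part in the results was not tested.

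The summed level of the cytotoxic genes was lower in the HAMSAB library, while its genes were split, with Ccl5 and Nkg7 clearest on the lower side. The 19 listed genes summed to 1515 CPM in the HAMSAB library and 1999 CPM in the HAMS library, a log2 ratio of -0.40 (-0.70 to -0.10). A single member gave 24 of the list's 200 UMIs in the HAMS library. Of the 12 with at least 10 UMIs over both libraries, 5 had ratios above 0 and 7 below, 1 was at least 2-fold higher in the HAMSAB library and 4 at least 2-fold lower, and the list's median log2 ratio was -0.22, or 0.28 when each member was weighted equally. Of all 3363 genes at this minimum, 13.3% were past 2-fold on the higher side and 7.79% on the lower, with a median of 0.08. The share at least 2-fold lower was 33.3% of the 12 cytotoxic genes.

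Ccl5 had 16 UMIs in 11 members of the HAMSAB library and 35 UMIs in 16 members of the HAMS library, 131 CPM against 350 CPM, a log2 ratio of -1.42 (-2.37 to -0.53). Nkg7 had 18 UMIs in the HAMSAB library and 30 in the HAMS library, 147 CPM against 300 CPM, a log2 ratio of -1.02 (-1.95 to -0.13). Both intervals lie below 0, and both genes were also lower in T barcodes without a coreceptor UMI, where the log2 ratios were -0.64 for Ccl5 and -0.89 for Nkg7. Gzma, granzyme A, gave 6 UMIs in 4 members of the HAMSAB library and 12 UMIs in the HAMS library that all came from 1 member. Serpinb6b, a granule protease inhibitor, gave 7 UMIs in the HAMSAB library and 12 in the HAMS library, with an interval of -2.65 to 0.40.

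The ratios of the killing molecules themselves were imprecise. Gzmb, granzyme B, had 10 UMIs in the HAMSAB library and 7 in the HAMS library, and Gzmk, granzyme K, had 10 in HAMSAB and 6 in HAMS. Prf1, perforin, had 9 UMIs in the HAMSAB library and 5 in the HAMS library, a log2 ratio of 0.56 (-1.17 to 2.49). Srgn, the granule proteoglycan serglycin, had 278 CPM in the HAMSAB library and 310 CPM in the HAMS library. Serpinb9 gave 22 UMIs in each library and Xcl1 gave 21 in the HAMSAB library and 22 in the HAMS library. Tnf was the 1 member at least 2-fold higher in the HAMSAB library, with 9 UMIs against 1 in the HAMS library. Ifng, interferon gamma, had 4 UMIs in the HAMSAB library and 2 in the HAMS library. All these intervals except that of Tnf (0.03 to 8.34) span 0.

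The lectin-like receptors had no wide difference between the diets. Klrd1 had a log2 ratio of -0.13 (-1.15 to 0.91), Klrc2 of 0.26 (-0.83 to 1.40), Klrc1 of 0.35 (-0.96 to 1.74) and Klre1 of -0.29 (-2.41 to 1.83). A 2-fold higher level lies within the intervals of Klrc2, Klrc1 and Klre1, and a 2-fold lower level within those of Klrd1 and Klre1.

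Genes of naive and homing T cells were higher in the HAMSAB library as a group. The 16 listed genes summed to 2539 CPM in the HAMSAB library and 1619 CPM in the HAMS library, a log2 ratio of 0.65 (0.37 to 0.93). Of 7 with at least 10 UMIs, 3 (42.9%) were at least 2-fold higher in the HAMSAB library and 1 (14.3%) at least 2-fold lower, with a median of 0.65. Over all genes at this minimum the shares were 13.3% higher and 7.79% lower, with a median of 0.08. A single member gave 25 of the list's 310 UMIs in the HAMSAB library. Tcf7 had 88 UMIs in 36 members of the HAMSAB library and 30 UMIs in 12 members of the HAMS library, 721 CPM against 300 CPM, a log2 ratio of 1.27 (0.65 to 1.91). Ccr7 had 29 UMIs in 15 members of the HAMSAB library and 6 UMIs in 5 members of the HAMS library, a log2 ratio of 1.99 (0.69 to 3.54). Satb1, a chromatin organiser of T cells, had 753 CPM in the HAMSAB library and 480 CPM in the HAMS library, a log2 ratio of 0.65 (0.13 to 1.19).

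Lef1 went the other way, with 11 UMIs in the HAMSAB library and 25 in the HAMS library, a log2 ratio of -1.47 (-2.64 to -0.40), and 7 of the 25 came from 1 member. Foxp1, a factor that keeps T cells quiescent, had a log2 ratio of 0.31 (-0.31 to 0.95). Dapl1 gave 9 UMIs in 7 members of the HAMSAB library and 2 UMIs in 2 members of the HAMS library, against 1 and 0 UMIs in the more numerous T barcodes without a coreceptor UMI. Dapl1 RNA was also present in hormone-rich barcodes, at 236 CPM in the HAMSAB library and 25.6 CPM in the HAMS library.

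The size of the naive and homing difference varied with the number of CD8 UMIs in a member. Among members with 2 or more CD8 UMIs, 24 in the HAMSAB library and 21 in the HAMS library, the naive and homing genes summed to 1718 CPM in the HAMSAB library and 1737 CPM in the HAMS library, a log2 ratio of -0.02 (-0.50 to 0.46). Among members with 1 CD8 UMI they summed to 3005 CPM in the HAMSAB library and 1530 CPM in the HAMS library, a log2 ratio of 0.97 (0.61 to 1.35), and in T barcodes without a coreceptor UMI to 2761 CPM in the HAMSAB library and 1748 CPM in the HAMS library. The difference between these classes was not tested. Tcf7 had 14 UMIs in the HAMSAB library and 19 in the HAMS library among members with 2 or more CD8 UMIs, and 74 UMIs against 11 among those with 1.

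The cytotoxic genes were laid out differently. Their log2 ratio was -0.77 (-1.27 to -0.27) among members with 2 or more CD8 UMIs, from 1266 CPM in the HAMSAB library and 2154 CPM in the HAMS library. It was -0.18 (-0.56 to 0.20) among members with 1 CD8 UMI and -0.10 (-0.29 to 0.08) in T barcodes without a coreceptor UMI. Median depth was 1674.5 UMIs in the HAMSAB library and 1560 in the HAMS library among members with 2 or more CD8 UMIs, and 1259 in the HAMSAB library and 1843 in the HAMS library among those with 1.

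**Figure D2:**
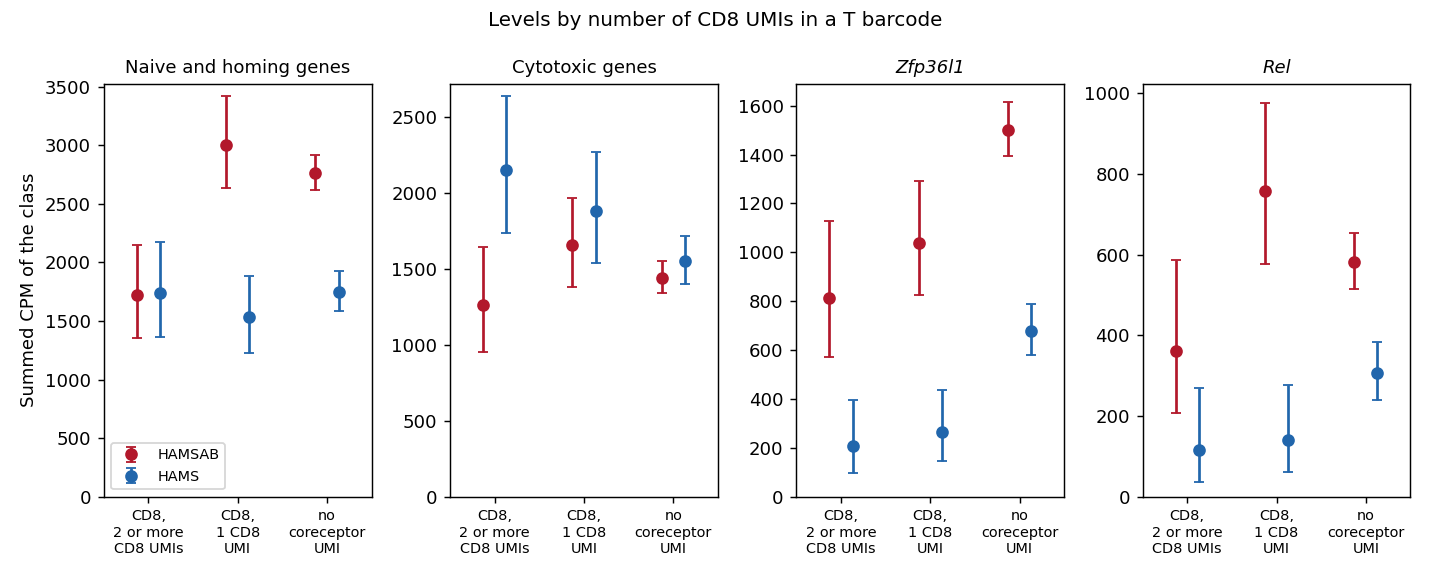
Summed level (CPM of the class total, exact 95% Poisson intervals) of the naive and homing list, the cytotoxic list, Zfp36l1 and Rel in T barcodes with 2 or more CD8 UMIs, with 1 and with no coreceptor UMI, HAMSAB left of HAMS. The naive and homing genes are level between the diets with 2 or more CD8 UMIs (1718 and 1737 CPM), whereas Zfp36l1 and Rel are higher in the HAMSAB library in all 3 classes.

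Counted by member, a UMI of Ccr7, Lef1, Tcf7 or Il7r was present in 44 of 79 members (55.7%, 44.1 to 66.9) of the HAMSAB library and 19 of 48 (39.6%, 25.8 to 54.7) of the HAMS library. A UMI of Nkg7, Ccl5, Gzma, Gzmb, Gzmk, Prf1 or Ctsw was present in 35 members (44.3%, 33.1 to 55.9) of the HAMSAB library and 32 (66.7%, 51.6 to 79.6) of the HAMS library. These genes are only parts of the 2 lists. A UMI of any of the 16 naive and homing genes was present in 62 members of the HAMSAB library and 37 of the HAMS library. For any of the 19 cytotoxic genes the numbers were 58 in the HAMSAB library and 40 in the HAMS library. Since members of the HAMS library were deeper, each member was also thinned to 500 UMIs, which left out 6 members of the HAMSAB library and 1 of the HAMS library. The chosen naive genes were then seen in 31.5% (21.1 to 43.4) of members of the HAMSAB library and 19.1% (9.15 to 33.3) of the HAMS library. The chosen cytotoxic genes were seen in 24.7% (15.3 to 36.1) of members of the HAMSAB library and 36.2% (22.7 to 51.5) of the HAMS library. The thinned intervals of the 2 libraries overlap for both gene groups. In thinned hormone-rich barcodes of the HAMSAB library the same genes were seen in 1.64% and 0.818%.

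By the same chosen genes, members with cytotoxic but no naive RNA made up 24.1% (15.1 to 35.0) in the HAMSAB library and 52.1% (37.2 to 66.7) in the HAMS library before thinning. After thinning they made up 17.8% (9.84 to 28.5) in the HAMSAB library and 36.2% (22.7 to 51.5) in the HAMS library, when the intervals overlap. Naive and cytotoxic RNA were seen together in 16 members of the HAMSAB library and 7 of the HAMS library before thinning.

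Over all genes with at least 20 UMIs in CD8 members of both libraries together, 146 of 1777 (8.22%) were at least 2-fold higher in the HAMSAB library and 73 (4.11%) at least 2-fold lower. The genes named next are the 10 highest and 10 lowest by the bound of the interval nearest 0. Zfp36l1, which binds AU-rich elements and speeds decay of cytokine mRNAs, had 117 UMIs in 45 members of the HAMSAB library and 24 UMIs in 17 members of the HAMS library, 958 CPM against 240 CPM, a log2 ratio of 1.998 (1.36 to 2.70). Rel, the NF-kB subunit c-Rel of lymphocytes, had 75 UMIs in 38 members of the HAMSAB library and 13 UMIs in 8 members of the HAMS library, 614 CPM against 130 CPM, a log2 ratio of 2.24 (1.38 to 3.22). Neither gene's difference came from 1 barcode, since no member held more than 8 UMIs of either.

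Both genes were higher in the HAMSAB library beyond CD8 members too. In T barcodes without a coreceptor UMI the log2 ratio was 1.15 (0.90 to 1.40) for Zfp36l1 and 0.92 (0.55 to 1.31) for Rel. In members with 2 or more CD8 UMIs it was 1.96 (0.88 to 3.20) for Zfp36l1 and 1.64 (0.13 to 3.45) for Rel. In B barcodes it was 0.60 for Zfp36l1 and 0.44 for Rel. The authors' deposited table was made over cells of all T cells of these libraries, so it does not stand apart from CD8 members. Its log2 fold change was 0.84 for Zfp36l1 and 0.93 for Rel.

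The promoters of these 2 genes and of Nkg7, which differed the other way, are shown as examples, chosen after the matches were seen because each holds one to a lymphocyte factor's motif. The windows of Tnfsf11 and of both starts of Tcf7 were searched as well and held no match to any of the 4 motifs. The sequences are RefSeq's for build GRCm38.p6, from 250 bases before to 50 after the gene start, 5′ to 3′ on the gene's strand. Capitals mark matches on either strand to TGTGGT (RUNX), TGANTCA (AP-1) or the NF-kB consensus. CTTTGA (TCF/LEF) was searched as well and had no match in the 3 windows.
Zfp36l1, chr12:80112964-80113263, minus strand: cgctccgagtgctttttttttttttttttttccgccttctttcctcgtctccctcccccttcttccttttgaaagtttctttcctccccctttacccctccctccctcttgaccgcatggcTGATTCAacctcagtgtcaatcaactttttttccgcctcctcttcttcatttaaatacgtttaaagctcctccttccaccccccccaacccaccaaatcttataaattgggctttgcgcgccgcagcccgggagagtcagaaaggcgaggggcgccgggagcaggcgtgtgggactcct
Rel, chr11:23770920-23771219, minus strand: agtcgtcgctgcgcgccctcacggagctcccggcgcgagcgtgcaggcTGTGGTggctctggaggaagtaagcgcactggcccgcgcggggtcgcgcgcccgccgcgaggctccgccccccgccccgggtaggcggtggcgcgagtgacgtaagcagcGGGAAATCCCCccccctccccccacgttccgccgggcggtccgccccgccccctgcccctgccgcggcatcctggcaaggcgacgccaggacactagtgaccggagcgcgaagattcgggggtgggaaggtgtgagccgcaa
Nkg7, chr7:43436888-43437187, plus strand: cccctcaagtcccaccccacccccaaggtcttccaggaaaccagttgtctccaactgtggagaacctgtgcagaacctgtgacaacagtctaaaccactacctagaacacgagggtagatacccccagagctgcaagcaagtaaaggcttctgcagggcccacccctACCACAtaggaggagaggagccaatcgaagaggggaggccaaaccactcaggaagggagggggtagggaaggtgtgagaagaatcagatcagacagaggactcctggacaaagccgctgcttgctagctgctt
Zfp36l1 had 1 AP-1 match. Rel had 1 RUNX match and 2 NF-kB matches that overlap each other. Nkg7 had 1 RUNX match. Among 32851 promoter windows of this length, 16.8% held the RUNX letters, 16.0% the TCF/LEF letters, 7.81% the AP-1 letters and 8.46% the NF-kB consensus. A match is a description of the letters and was not measured as binding here.

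Among the other genes higher in the HAMSAB library, Tnfsf11 (RANKL) and Tnfsf8 (CD30 ligand) are TNF family ligands of activated T cells. Tnfsf11 had 24 UMIs in 13 members of the HAMSAB library and 1 UMI in the HAMS library, a log2 ratio of 4.30 (1.68 to 9.66). Tnfsf8 had 19 UMIs in 9 members of the HAMSAB library and 2 UMIs in the HAMS library, a log2 ratio of 2.96 (0.91 to 6.11). Both were also higher in T barcodes without a coreceptor UMI, with log2 ratios of 1.24 (0.56 to 1.97) for Tnfsf11 and 1.70 (0.97 to 2.504) for Tnfsf8. Irf2bp2, a corepressor that binds IRF2, had 475 CPM in the HAMSAB library and 120 CPM in the HAMS library. Nfat5, the osmotic stress factor, had 385 CPM in the HAMSAB library and 110 CPM in the HAMS library. Dennd4a, a Rab exchange factor, had a log2 ratio of 1.54 (0.81 to 2.33).

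Snhg3, a snoRNA host gene, and Pcgf5, a Polycomb component, had 19 UMIs each in the HAMSAB library, against 1 of Snhg3 and 2 of Pcgf5 in the HAMS library. In T barcodes without a coreceptor UMI their log2 ratios were -0.11 for Snhg3 and 0.02 for Pcgf5. Clu, clusterin, had the widest ratio, 5.10 (3.71 to 6.99), from 167 UMIs in 4 members of the HAMSAB library and 4 UMIs in 3 members of the HAMS library. A single barcode gave 121 of the 167, and it also held 12 UMIs of acinar and ductal markers, 7 of B cell markers, 5 of mature dendritic cell markers and 1 of Xcr1 dendritic cell markers among its 2595 UMIs. Without the members holding dendritic cell marker UMIs, the ratio of Clu was -2.37, on 5 UMIs.

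Lower in the HAMSAB library was Vim, the intermediate filament vimentin, with 54 UMIs in 27 members against 101 UMIs in 32 members of the HAMS library, 442 CPM against 1010 CPM, a log2 ratio of -1.19 (-1.70 to -0.70). It was also lower in T barcodes without a coreceptor UMI, at -0.53 (-0.84 to -0.22). Ppp2r5a, a regulatory subunit of the phosphatase PP2A, had 41 UMIs in the HAMSAB library and 72 in the HAMS library, and Psmd11, a proteasome lid subunit, had 70 in HAMSAB and 111 in HAMS. Their log2 ratios were -1.10 (-1.69 to -0.53) for Ppp2r5a and -0.95 (-1.41 to -0.51) for Psmd11, beside -0.11 for Ppp2r5a and -0.09 for Psmd11 in T barcodes without a coreceptor UMI. Rpn1, a subunit of the oligosaccharyltransferase, had 3 UMIs in the HAMSAB library and 18 in the HAMS library, and Tcf25 had 8 in HAMSAB and 28 in HAMS. Irf2bpl, Chaf1a, a subunit of the chromatin assembly factor CAF-1, the sterol exporter Abcg1 and Ubp1 had 4 to 6 UMIs in the HAMSAB library and 17 to 20 in the HAMS library. With Ccl5 these made up the 10 lowest.

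**Figure D3:**
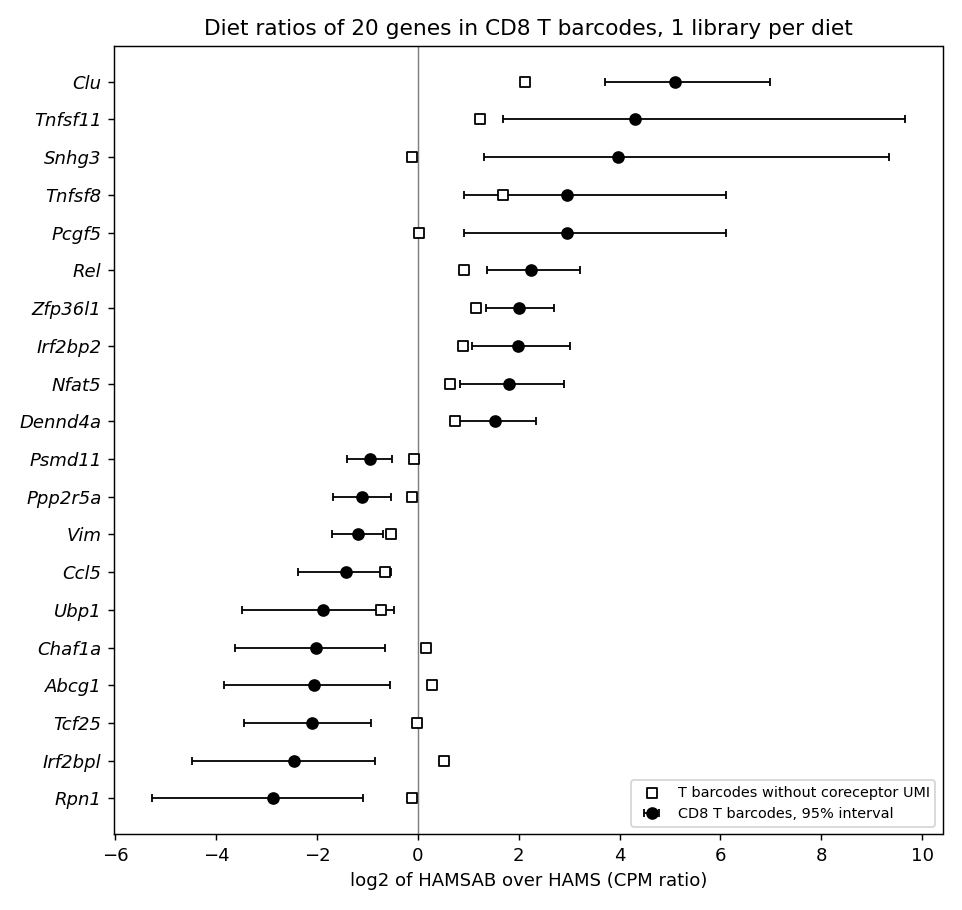
Log2 ratio of HAMSAB over HAMS in CD8 T barcodes (circles, exact conditional binomial 95% intervals) for the 10 highest and 10 lowest genes by the interval bound nearest 0, with the ratio of the same gene in T barcodes without a coreceptor UMI (squares). Rel and Zfp36l1 lie above 0 in both classes, whereas Snhg3, Pcgf5, Tcf25 and Psmd11 lie near 0 in the T barcodes without a coreceptor UMI.

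Other gene groups are given by the same counts, beside the 13.3% and 7.79% of all genes that were past 2-fold higher and lower. Of 8 costimulation genes, 5 were at least 2-fold higher in the HAMSAB library and 0 lower, with a median log2 ratio of 2.42. Besides Tnfsf8 and Tnfsf11, the activation marker Cd83 had 13 UMIs in the HAMSAB library and 1 in the HAMS library, Tnfrsf4 (OX40) had 10 in HAMSAB and 1 in HAMS, and Cd48 had 9 in HAMSAB and 2 in HAMS. Icos, the inducible costimulator, had 22 UMIs in the HAMSAB library and 24 in the HAMS library, and Cd82, a tetraspanin, had 11 in HAMSAB and 7 in HAMS. The HAMS values of the 5 higher genes are 1 or 2 UMIs each, so the size of the median is imprecise.

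Of 22 immediate-early genes, 5 were at least 2-fold higher in the HAMSAB library and 0 lower, with a median of 0.36. Junb, an AP-1 subunit, had 696 CPM in the HAMSAB library and 330 CPM in the HAMS library, a log2 ratio of 1.08 (0.48 to 1.70). Nfkbia, the NF-kB inhibitor IkB-alpha, had 647 CPM in the HAMSAB library and 230 CPM in the HAMS library, a log2 ratio of 1.49 (0.81 to 2.23). The antiproliferative Btg1, the most abundant by UMIs, had a log2 ratio of 0.33 (0.08 to 0.58), and the chaperone Hsp90aa1 had 0.03 (-0.23 to 0.29). Fos went the other way at -0.63 (-1.71 to 0.43), and 11 of its 19 UMIs in the HAMS library came from 1 member. Zfp36l2, a relative of Zfp36l1, had a log2 ratio of 0.44 (-0.12 to 1.02).

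Of 11 JAK-STAT genes, 2 were at least 2-fold higher in the HAMSAB library and 0 lower, with a median of 0.25. Pim1, a kinase induced by cytokine signalling, had 424 UMIs in 71 members of the HAMSAB library and 188 UMIs in 40 members of the HAMS library, 3472 CPM against 1879 CPM, a log2 ratio of 0.89 (0.63 to 1.14). Its log2 fold change in the authors' deposited table of T cells was 0.55. The feedback inhibitor Socs1 had 12 UMIs in the HAMSAB library and 2 in the HAMS library, and Socs3 had 11 in HAMSAB and 2 in HAMS. Jak1 and Stat3 had log2 ratios of 0.16 and 0.00 with intervals that span 0. Of 7 cytokine receptors none passed 2-fold either way. Il21r had 500 CPM in the HAMSAB library and 470 CPM in the HAMS library, Il2rb had 188 CPM in HAMSAB and 210 CPM in HAMS, and Ifngr1 had 156 CPM in HAMSAB and 210 CPM in HAMS. Il2ra had a log2 ratio of 0.98 (-0.14 to 2.20).

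Of 16 T cell transcription factors, 4 were at least 2-fold higher in the HAMSAB library and 0 lower, with a median of 0.24. Ikzf2 had 442 CPM in the HAMSAB library and 150 CPM in the HAMS library, a log2 ratio of 1.56 (0.71 to 2.49), and its family member Ikzf3 (Aiolos) had 20 UMIs against 4. Runx3, which sets the CD8 lineage, had 43 UMIs in the HAMSAB library and 44 in the HAMS library, and Eomes, a factor of effector and memory CD8 cells, had 10 in HAMSAB and 12 in HAMS. Ets1, Id2 and Bcl11b had log2 ratios of 0.22, 0.10 and 0.22 with intervals that span 0. Of 18 genes of receptor signalling, 0 were past 2-fold on the higher side and 3 on the lower, among them the adaptor Skap1 at -1.08 (-2.10 to -0.11). The phosphatases Ptprc (CD45) and Ptpn22, the kinase Fyn and the surface protein Thy1 had log2 ratios of 0.42, 0.37, -0.07 and 0.11.

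Of 13 genes of residency and migration, 5 were at least 2-fold higher in the HAMSAB library and 0 lower, with a median of 0.13. Itgb1, the integrin beta-1 chain, had 524 CPM in the HAMSAB library and 250 CPM in the HAMS library, and Rgs1, which dampens chemokine receptor signals, had 360 CPM in HAMSAB and 120 CPM in HAMS. Cd69, an early activation and residency marker, had 24 UMIs in the HAMSAB library and 5 in the HAMS library, a log2 ratio of 1.98 (0.56 to 3.72). Cxcr4, the CXCL12 receptor, was near level at 2956 CPM in the HAMSAB library and 2899 CPM in the HAMS library, and Rgs2 had a log2 ratio of 0.41 (-0.36 to 1.21). The residency integrin Itgae (CD103) gave 3 UMIs in the HAMSAB library and 0 in the HAMS library.

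Of 6 checkpoint genes, 0 were at least 2-fold higher in the HAMSAB library and 2 lower, with a median of -0.04. Tnfrsf9 (4-1BB), which marks recently stimulated CD8 cells, had 11 UMIs in the HAMSAB library and 22 in the HAMS library, a log2 ratio of -1.29 (-2.48 to -0.18), which turned to 0.95, from 8 UMIs, in members thinned to 500 UMIs, and Havcr2 (TIM-3) had 5 UMIs in HAMSAB and 11 in HAMS. Tox, the factor of exhausted cells, had 262 CPM in the HAMSAB library and 220 CPM in the HAMS library, and Tox2 and Cd200 had log2 ratios of -0.08 and 0.00. Pdcd1 (PD-1) gave 5 UMIs in the HAMSAB library and 3 in the HAMS library, and Lag3 gave 4 in each.

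Genes of glycolysis leaned lower in the HAMSAB library. The 15 listed genes summed to 3104 CPM in the HAMSAB library and 3998 CPM in the HAMS library, a log2 ratio of -0.37 (-0.57 to -0.16), and 10 of 11 with at least 10 UMIs had a ratio below 0, but only 1 was past 2-fold. Gapdh had 835 CPM in the HAMSAB library and 1219 CPM in the HAMS library, a log2 ratio of -0.55 (-0.94 to -0.15). Ldha, Pkm and Pgk1 had log2 ratios of -0.16, -0.29 and -0.49 with intervals that span 0. Hk2, which starts glycolysis, was the exception at 1.01 (0.04 to 2.07). A single member gave 42 of the list's 400 UMIs in the HAMS library, and another gave 27 of 379 in the HAMSAB library. The list's log2 ratio was -0.12 (-0.44 to 0.21) among members with 2 or more CD8 UMIs and -0.53 (-0.80 to -0.26) among those with 1. It was -0.27 (-0.40 to -0.14) in T barcodes without a coreceptor UMI, and the difference between these classes was not tested.

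Cycling genes were abundant in both libraries. Mki67 or Top2a was seen in 50 of 79 members (63.3%) of the HAMSAB library and 42 of 48 (87.5%) of the HAMS library, and, thinned to 500 UMIs, in 49.3% (37.4 to 61.3) of the HAMSAB library and 53.2% (38.1 to 67.9) of the HAMS library. Thinned T barcodes without a coreceptor UMI had 41.2% in the HAMSAB library and 44.5% in the HAMS library, and thinned hormone-rich barcodes of the HAMSAB library had 2.66%. Of 18 proliferation genes, 0 passed 2-fold either way, and the list summed to a log2 ratio of -0.28 (-0.36 to -0.20). Tubb5, a tubulin, had 13103 CPM in the HAMSAB library and 16272 CPM in the HAMS library. Hmgb2, a chromatin protein of cycling cells, had 1793 CPM in the HAMSAB library and 2739 CPM in the HAMS library, a log2 ratio of -0.61 (-0.87 to -0.35), and Top2a, a topoisomerase, was at -0.43 (-0.80 to -0.06), whereas Mki67 (Ki-67) was at 0.36 (-0.07 to 0.79).

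Of 11 MHC class I genes, 2 were at least 2-fold higher in the HAMSAB library and 1 lower. B2m, the shared light chain, had 1122 CPM in the HAMSAB library and 1209 CPM in the HAMS library, H2-D1 had 622 CPM in HAMSAB and 680 CPM in HAMS, and H2-K1 had 631 CPM in HAMSAB and 440 CPM in HAMS. Of 8 interferon-induced genes, 1 was at least 2-fold higher and 1 lower, with a median of -0.02, and Ly6e, Gbp7 and Gbp3 had intervals that span 0. Of the 3 short-chain fatty acid and histone deacetylase genes with at least 10 UMIs, none passed 2-fold. Hdac1, a class I deacetylase, had 295 CPM in the HAMSAB library and 170 CPM in the HAMS library, a log2 ratio of 0.79 (-0.07 to 1.72), Hdac2 had 5 UMIs against 8, and the monocarboxylate transporter Slc16a1 had 10 against 7.

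**Figure D4:**
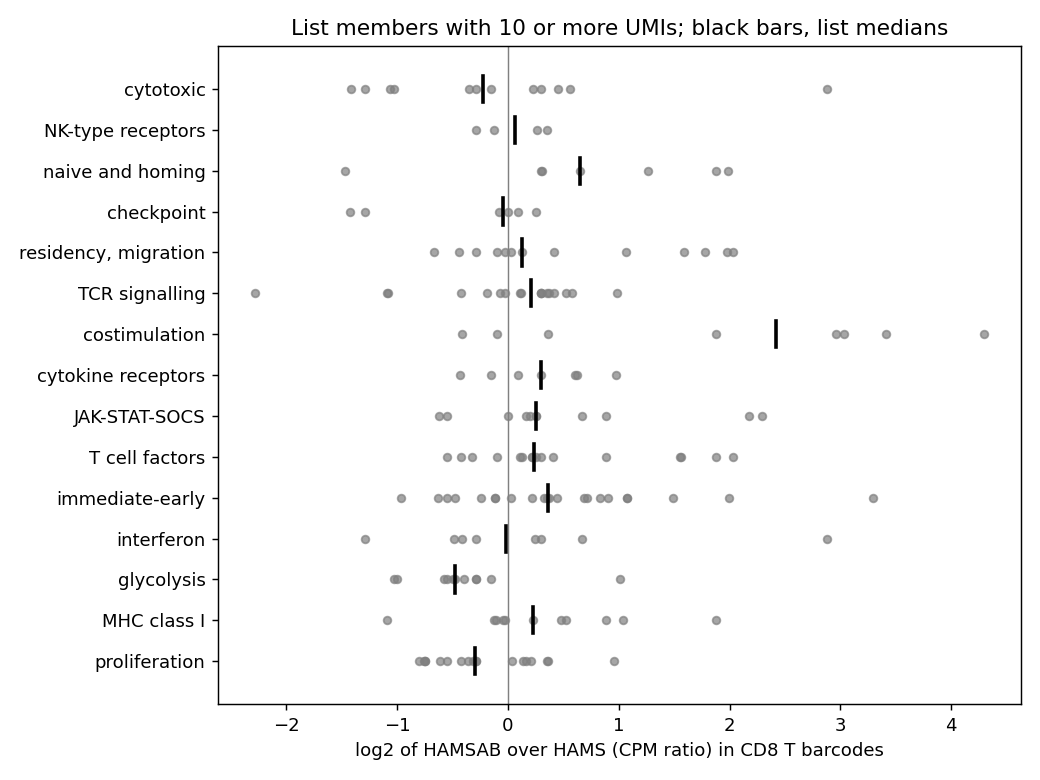
Log2 ratio of HAMSAB over HAMS in CD8 T barcodes for each list member with 10 or more UMIs over both libraries (dots), with each list's median (bars). The costimulation list has the highest median (2.42) and glycolysis the lowest (-0.48), beside a median of 0.08 over all genes.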

How the data were processed

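Single cells of islets from NOD mice on the HAMSAB or HAMS diet (1 library each) had been captured with a 3′ droplet kit. The authors deposited raw UMI counts per gene and barcode, made with Cell Ranger 5.0.0 per the file headers, on mm10 (GRCm38) and with Seurat per the submitters' processing notes. The authors also deposited a table of 34 genes in T cells with log2 fold changes, quoted as their own, and p-values made from cells, not printed here.

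The members' counts were added up within each library and scaled to the class total (CPM). Log2 ratios have exact conditional binomial 95% intervals, levels Poisson intervals and shares Clopper-Pearson intervals (Python, numpy 2.4.6, scipy 1.17.1, pandas 2.3.3), checked on simulated data. Genes needed 20 UMIs over both libraries, list members 10. Floors are 3 counts. No doublet caller was run, and doublets were kept unless a Cd4, B cell or C1q UMI or a hormone share of at least 2% excluded them. PCR copies are removed by UMIs, but cells of 1 library are not replicates, and counts carry no sample error.

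Comparators were CD4 T barcodes by the mirrored rule and, added after the data were seen, T barcodes without a Cd8a, Cd8b1 or Cd4 UMI. Hormone-rich barcodes had at least 10% hormone UMIs. Named genes were the 10 highest and 10 lowest by the interval bound nearest 0 (CD8 comparisons by the smaller ratio of the 2 libraries), without mitochondrial, ribosomal, receptor segment and rule genes, and the 4 list members with most UMIs. The diet ranking also left out genes whose CPM in members was, in both libraries, below 0.1 of their peak among CD4 T, B, macrophage and hormone-rich barcodes. The CD8 comparisons did not have this limit. Other list members were named after their values were seen. Members and lists were chosen with earlier results of these data known. Of the lists' genes, Mx1, Trgc1, Trgc2 and Trgc4 were not in the feature tables. Alternatives changed the depth, CD8 UMI, receptor UMI, hormone and marker limits, the weighting and the UMI minimum. Some list members are not reported here by name.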

Additional observations from a re-analysis of the deposited data

Results flagged for a closer look

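For Top2a and Ptma, the chromatin-associated prothymosin alpha, the diet ratio lay on opposite sides of 0 in CD8 members and in T barcodes without a coreceptor UMI, with neither interval reaching 0. They were 2 of 1639 genes with at least 20 UMIs in both classes. How many such genes counting error alone would give was not worked out, so the 2 are listed only as values. The log2 ratio of Top2a was -0.43 (-0.80 to -0.06) in CD8 members and 0.28 (0.04 to 0.53) in the other T barcodes. That of Ptma was -0.16 (-0.29 to -0.03) in CD8 members and 0.20 (0.12 to 0.28) in the other T barcodes. The difference between the classes was not tested.

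CD8 chain UMIs also appeared in barcodes that the comparisons do not use, those with under 2% hormone UMIs and no T cell receptor or Cd3 UMI. They were seen in 25 of 2606 such barcodes (0.959%) in the HAMSAB library and 9 of 1520 (0.592%) in the HAMS library, above the 3 counts taken as the floor. Of these, 6 in the HAMSAB library and 2 in the HAMS library also carried Xcr1, Clec9a or Siglech, markers of dendritic cells, some of which are known to express Cd8a.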

How the results depend on the processing

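No paired analysis was possible because each diet has 1 library and the labels carry no replicate numbers. Of 934 alternative values of 78 named genes, 892 stayed within the counting interval of the main value, 39 moved out of it and 3 reversed. A reversal was counted only for genes with a main log2 ratio of at least 1 either way. Smaller ratios could change sign within the 892. B2m did so at 0.02 (-0.11 in the main result) with at least 500 genes per barcode, and Stat3 kept its sign in 6 of 12 alternatives. With at least 2 CD8 UMIs, the difference in share of kept barcodes was 0.0168 percentage points (0.560 in the main result) and that in share of CD8 plus CD4 barcodes -22.9 (-9.68), 56 genes were 2-fold higher and 36 lower, the cytotoxic median was -1.39, the naive median -0.32, and Tcf7 reversed to -0.48. With at least 1 Cd8b1 UMI 42 genes were lower. With barcodes weighted equally 113 were lower, and the cytotoxic median was 0.28. Thinned to 500 UMIs, 32 were higher and 21 lower, the cytotoxic median was -1.22, and Tnfrsf9 reversed to 0.95 on 8 UMIs. Without barcodes holding dendritic cell marker UMIs, Clu reversed to -2.37 on 5 UMIs. With at least 50 UMIs per gene the counts were 34 and 9, with 10 they were 447 and 262, and with no minimum and 1 UMI added 1464 and 2045. Genes apart from CD4 T barcodes in both libraries numbered 34, Cd8a and Cd8b1 among them. They numbered 57 with 2 coreceptor UMIs required on both sides and 2 with at least 50 UMIs per gene. Thinned before the rule, the difference in share of T barcodes was 0.888 percentage points (-4.77 in the main result, chosen after the data were seen). The cause of these changes was not tested. Zfp36l1 kept log2 ratios of 1.36 to 2.38 and Rel of 1.61 to 2.98 over 12 alternatives, Vim of -1.48 to -0.75 and Nkg7 of -1.62 to -0.81. Tnfsf11 ran from 0.70 to 4.91, and thinned Pcgf5 was 0.10 (2.96) and Snhg3 0.95 (3.96). In the alternatives a count of 0 facing more than 3 UMIs was replaced by the floor of 3 counts. The 0.70 of Tnfsf11 is such a value, from 5 UMIs in the HAMSAB library and 0 in the HAMS library with at least 2 CD8 UMIs. The 0.10 of Pcgf5 also rests on that floor, so neither value gives the size of the difference. At 3 counts the floor is 24.6 CPM in the HAMSAB library and 29.99 CPM in the HAMS library.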
